A study of Mus musculus with 7 samples.

Results

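Oct1 sites found only at day 6 are the peaks of the day 6 Oct1 ChIP-seq list that overlapped, by at least 1 bp, no peak of the day 3 Oct1 list, none of the Oct1 list of undifferentiated mouse embryonic stem cells (ESCs) and none of the ESC Oct4 list. By this rule 4073 of the 7758 day 6 peaks were members (52.5%), out of 53151 peaks in the 4 lists. The members were thus chosen by measured values, the presence or absence of a listed peak in each library, and their number and scores are given as a description. The series profiled parental cells, with 1 library each for Oct1 in ESCs, Oct4 in ESCs, Oct1 at day 3 and Oct1 at day 6 of differentiation towards mesoderm, and with 3 input libraries that were not analysed here. All libraries are labelled with the parental genotype, the same Oct1 antibody was used in the 3 Oct1 libraries, and the conditional knockout and retinoic acid arms of the design were not analysed here. Differentiation ran in N2B27 with Bmp4 for 2 days, followed by 4 days in a DMEM-based medium with Rspo3 and the BMP receptor inhibitor LDN-193189, so Bmp4 was given early and BMP signalling was inhibited later. Peak lists hold no expression values, so the identity of the day 6 cells could not be checked against markers. With 1 library per group there was no replicate error for any value below. The 95% intervals are exact Clopper-Pearson intervals for counting error only, and peaks and genes are not replicates.

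Oct1 (gene Pou2f1) is a widely expressed POU-domain transcription factor and a relative of the pluripotency factor Oct4 (gene Pou5f1). Its bipartite DNA-binding domain recognises the octamer ATGCAAAT, in which the POU-specific domain contacts ATGC and the POU homeodomain contacts the A/T-rich remainder. It was first known from histone H2B and small nuclear RNA promoters, and it can also be recruited by partner proteins at sites that match the octamer poorly. During mesoderm formation BMP, Wnt and Notch signals act in turn. BMP receptors phosphorylate Smad proteins, Wnt signals pass through Frizzled receptors and Dishevelled to Tcf factors, and the Notch pathway drives the segmentation clock of the paraxial mesoderm.

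The promoter sequences of 8 genes with a member at their start are printed as examples, chosen because they hold the ATGC core or the full octamer. Over all members' windows the core was in 62.4% and the octamer in 0.482%, against 75.4% and 1.74% of all promoter windows. Each run spans 250 bases before to 50 after the gene's start, as RefSeq gives it for GRCm38.p6, 5′ to 3′ in the direction of transcription, and each window lies wholly inside its peak. Capitals mark the octamer (ATGCAAAT or ATTTGCAT), its ATGC core (ATGC or GCAT), the ETS motif (CCGGAAGT or ACTTCCGG) and the Sp motif (GGGCGG or CCGCCC). The first 2 belong to high-scoring members that carried the ATGC core, namely Psma2 (chr13:14612992-14613291, plus strand), encoding an alpha subunit of the 20S proteasome, and Sgta (chr10:81060127-81060426, minus strand), encoding a co-chaperone. Neither holds a full octamer, and each holds 1 match to the NRF1 motif, which contains ATGC, at one of the marked cores.
Psma2: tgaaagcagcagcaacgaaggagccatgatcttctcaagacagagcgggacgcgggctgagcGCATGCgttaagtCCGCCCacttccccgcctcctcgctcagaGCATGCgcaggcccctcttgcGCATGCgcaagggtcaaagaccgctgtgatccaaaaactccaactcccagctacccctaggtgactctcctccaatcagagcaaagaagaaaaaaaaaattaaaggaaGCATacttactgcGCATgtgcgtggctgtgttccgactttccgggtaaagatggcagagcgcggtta
Sgta: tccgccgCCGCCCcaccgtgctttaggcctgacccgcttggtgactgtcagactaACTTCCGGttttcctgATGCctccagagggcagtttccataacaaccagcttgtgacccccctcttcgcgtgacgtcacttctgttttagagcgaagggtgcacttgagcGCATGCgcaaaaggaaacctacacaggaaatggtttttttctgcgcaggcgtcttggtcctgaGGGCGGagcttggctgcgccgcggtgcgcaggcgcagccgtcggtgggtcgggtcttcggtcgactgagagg

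Adam10 (chr9:70678732-70679031, plus), Dvl2 (chr11:70000342-70000641, plus) and Smad6 (chr9:64022010-64022309, minus) are the highest-scoring genes of the Notch, Wnt and BMP lists whose window lay inside the peak and held the core. ADAM10 cleaves the Notch receptor, DVL2 is a Dishevelled protein and SMAD6 an inhibitory Smad. They hold several Sp matches each and no full octamer.
Adam10: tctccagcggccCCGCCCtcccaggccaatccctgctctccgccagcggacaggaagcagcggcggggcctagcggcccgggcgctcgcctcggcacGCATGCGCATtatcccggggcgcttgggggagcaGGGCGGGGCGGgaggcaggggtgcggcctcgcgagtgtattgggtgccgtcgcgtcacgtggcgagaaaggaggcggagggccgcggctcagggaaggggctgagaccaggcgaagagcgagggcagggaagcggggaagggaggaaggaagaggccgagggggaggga
Dvl2: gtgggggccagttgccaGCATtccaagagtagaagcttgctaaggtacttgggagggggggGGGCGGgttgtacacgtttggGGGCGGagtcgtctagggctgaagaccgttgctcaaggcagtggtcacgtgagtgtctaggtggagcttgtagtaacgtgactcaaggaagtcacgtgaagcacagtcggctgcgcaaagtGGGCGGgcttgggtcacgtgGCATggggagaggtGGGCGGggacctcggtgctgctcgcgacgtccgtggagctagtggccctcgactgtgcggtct
Smad6: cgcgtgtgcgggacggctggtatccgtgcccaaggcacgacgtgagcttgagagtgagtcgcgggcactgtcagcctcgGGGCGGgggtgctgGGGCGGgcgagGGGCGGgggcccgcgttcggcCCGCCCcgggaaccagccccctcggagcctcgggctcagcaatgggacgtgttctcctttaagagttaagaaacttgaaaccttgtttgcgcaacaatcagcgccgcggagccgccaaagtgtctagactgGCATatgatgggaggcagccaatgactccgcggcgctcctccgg

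Asb1 (chr1:91540315-91540614, plus), Lpcat1 (chr13:73466981-73467280, plus) and Pnpla3 (chr15:84167566-84167865, plus) are shown as the highest-scoring members with a full octamer in a window inside the peak, which was rare among the members. The octamer began at position -69 of Asb1, -122 of Lpcat1 and -79 of Pnpla3, counted from the start at +1.
Asb1: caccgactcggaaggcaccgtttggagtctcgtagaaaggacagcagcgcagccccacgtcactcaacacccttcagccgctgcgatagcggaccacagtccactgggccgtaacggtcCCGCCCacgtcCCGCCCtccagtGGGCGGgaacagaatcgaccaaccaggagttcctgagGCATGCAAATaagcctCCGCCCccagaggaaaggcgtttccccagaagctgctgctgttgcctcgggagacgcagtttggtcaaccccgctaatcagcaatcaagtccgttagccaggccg
Lpcat1: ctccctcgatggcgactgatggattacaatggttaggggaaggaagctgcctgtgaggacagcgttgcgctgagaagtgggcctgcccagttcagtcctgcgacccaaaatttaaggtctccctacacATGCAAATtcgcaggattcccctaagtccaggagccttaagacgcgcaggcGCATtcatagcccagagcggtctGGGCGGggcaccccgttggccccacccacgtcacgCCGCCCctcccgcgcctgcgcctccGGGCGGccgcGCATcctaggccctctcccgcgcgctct
Pnpla3: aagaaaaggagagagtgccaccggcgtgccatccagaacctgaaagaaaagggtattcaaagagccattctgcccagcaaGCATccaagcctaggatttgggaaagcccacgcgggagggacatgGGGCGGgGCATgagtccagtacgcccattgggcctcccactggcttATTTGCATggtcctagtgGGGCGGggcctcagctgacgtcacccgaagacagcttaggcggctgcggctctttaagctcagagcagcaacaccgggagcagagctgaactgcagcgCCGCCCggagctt

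Members lay at gene starts. Of the 4073 members, 3583 (88.0%, interval 86.9 to 89.0) were centred no more than 1 kb from a gene start. The median distance to the nearest start was 85 bp. In the same list, the 2286 peaks shared with day 3 but with neither ESC list lay at a start in 90.5% (89.2 to 91.7), and the 532 Oct1 peaks found in ESCs, at day 3 and at day 6 did so in 77.8% (74.0 to 81.3). The 651 peaks shared with Oct1 in ESCs but not with day 3 were at a start in 31.0% (27.5 to 34.7). The share of members was a little below that of the day 3 class, with intervals that did not overlap, and far above that of the sites shared with ESCs alone. All of these classes come from 1 day 6 library.

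For the 2986 members centred within 1 kb of a start of known strand, the midpoint was set against the direction of transcription. Their median position was 13 bp inside the gene, the middle 50% ran from -54 to 84 bp, and 89.1% of these 2986 lay within 250 bp of the start. The medians were -15 bp for the peaks shared with day 3 and -27.5 bp for those also found in ESCs, so the middle of each class lay close to the start. Protein-coding starts on both strands lay within 1 kb of 312 members (7.66%), and 439 members (10.8%) had at least 2 protein-coding genes in reach. Over all day 6 peaks these shares were 7.66% and 10.7%, so neither was particular to members.

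**Figure D1:**
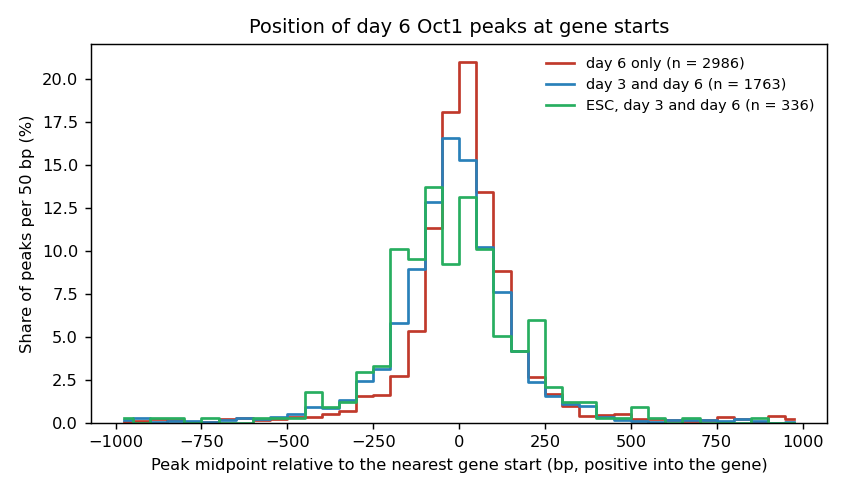
Position of peak midpoints relative to the nearest gene start (x axis, bp, positive into the gene) as the share of peaks per 50 bp (y axis), for day 6-only peaks, peaks shared with day 3 and peaks found in ESCs, at day 3 and at day 6. The 3 distributions overlap around the start, with medians of 13, -15 and -27.5 bp.

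The authors' score, a whole number without a stated unit, ranks peaks within the day 6 list. Scores of members ran from 34 to 2946 with a median of 432, and their median percentile in the list was 43.2. Peaks shared with day 3 had a median score of 863.5, peaks of ESCs, day 3 and day 6 had 835, and peaks shared with ESCs but not day 3 had 126. The members were thus of middle rank, below the sites shared with day 3 and above the sites shared with ESCs alone. They made up 38.6% of the lowest 10% of day 6 peaks by score, 70.6% of the peaks with scores from 303 to 399 and 19.6% of the highest 10%. Median widths were 610 bp for members and 750 bp for the peaks shared with day 3. Whether depth or the calling threshold of the day 3 list shaped this order was not tested.

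**Figure D2:**
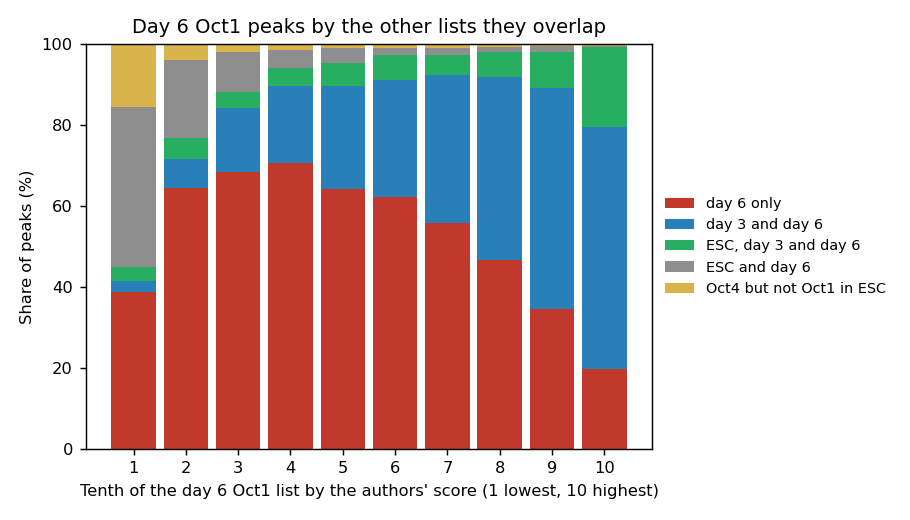
Share of day 6 Oct1 peaks (y axis, %) in each overlap class, for 10 classes of the day 6 list by the authors' score (x axis, lowest to highest). Day 6-only peaks make up 38.6% of the lowest class, 70.6% of the fourth and 19.6% of the highest, where peaks shared with day 3 make up 59.8%.

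Score and position moved together: 65.3% of members in the lowest score class lay at a gene start and 94.7% in the highest. Members at a start had a median score of 454, and the 490 beyond 1 kb had 275.5. The overlap rule put few members near its edge. The closest peaks inside the rule lay 0, 0 and 40 bases from an ESC Oct4 peak, at Zkscan17 (chr11:59505951-59506770, score 1007), at the tRNA gene n-THgtg4 (chr2:122375561-122376060, score 78) and near Pla2g12a (chr3:129878371-129879080, score 630). The closest peaks outside it overlapped an ESC Oct4 peak by 40, 50 and 50 bp, near Psmb10 (chr8:105936821-105937600, score 654), Ubtf (chr11:102308871-102309440, score 330) and Snai1 (chr2:167543051-167543990, score 115). The median gap from a member to any peak of the other 3 lists was 18110 bp, and 161 members (3.95%) had one within 1 kb.

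Most of the nearest starts belonged to protein-coding genes, 3299 of 3583 (92.1%), and 243 (6.78%) to long noncoding RNA genes. At the level of genes, a member lay within 1 kb of the start for 3842 of the 21887 that code for protein (17.6%), and any day 6 peak did so for 6730 (30.7%). Members of the better-scoring 50% of day 6 peaks were at the starts of 1763 (8.06%), and within 5 kb of the start a member was found for 4295 (19.6%). These percentages are the background for the gene groups below. Of the 3842 genes, 3679 had no peak of the day 3 or ESC lists at their start, 69 had a day 3 Oct1 peak there, 71 an ESC Oct1 peak and 82 an ESC Oct4 peak. These low numbers follow from the rule, which removed peaks that overlap an earlier one. Over all protein-coding genes a day 3 Oct1 peak lay at the start of 14.4%, an ESC Oct1 peak at 7.13% and an ESC Oct4 peak at 6.31%, and nothing is read from the contrast.

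The member with the highest score lay at Wdr20 (chr12:110737531-110738360), which encodes a WD-repeat partner of deubiquitinating enzymes; its score of 2946 ranked 95 in the list, so 94 peaks of other classes stood above it. Of the others among the 15 highest at gene starts, Psma2 (score 2611) shares its peak with Mrpl32, for a mitochondrial ribosomal protein. Sgta had 2581, Wdr45b, which acts in autophagy, 2504, and Ccnt2, for cyclin T2 of the elongation factor P-TEFb, 2485. Clpx, for a mitochondrial protease subunit, had 2419, Nup133 of the nuclear pore 2380 and Med6 of the Mediator complex 2316. Cdk4, for the cyclin-dependent kinase of G1, had 2248 and Ten1, for a telomere-capping protein, 2236. The remaining 5 of the top 15 were 4933405D12Rik, Pttg1ip, Spag9, Dynlt1b and Unk, with scores between 2240 and 2765. Dynlt1b has near-identical copies in the genome, so its reads may be shared with them.

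Of 29 gene lists, 19 had a larger share of genes with a member than the 17.6% of all protein-coding genes, and the counting interval lay wholly above it in 11. These were 10 lists of general cell functions and the TGF-beta, BMP and Smad list. The shares were 41.7% (25.5 to 59.2) for aminoacyl-tRNA synthetases, 15 of 36 genes, and 39.5% (29.2 to 50.7) for cytosolic ribosomal proteins, 34 of 86. Oxidative phosphorylation had 31 of 87 genes (35.6%), chaperonins and heat shock proteins 26 of 75 (34.7%), translation initiation factors 19 of 56 (33.9%), DNA replication 16 of 48 (33.3%) and mitosis and kinetochore 31 of 96 (32.3%). RNA polymerase and general transcription factors followed with 34 of 106 (32.1%), splicing factors with 24 of 75 (32.0%) and DNA repair with 22 of 71 (31.0%). The same lists were above the background for any day 6 peak: all 11 lists had an interval wholly above 30.7% there. Among genes with any day 6 peak, 57.1% had a member, and no list had an interval of this share wholly above that value. The high shares were thus a feature of the day 6 list as a whole, and a difference between members and the other day 6 peaks was not seen for them beyond counting error.

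**Figure D3:**
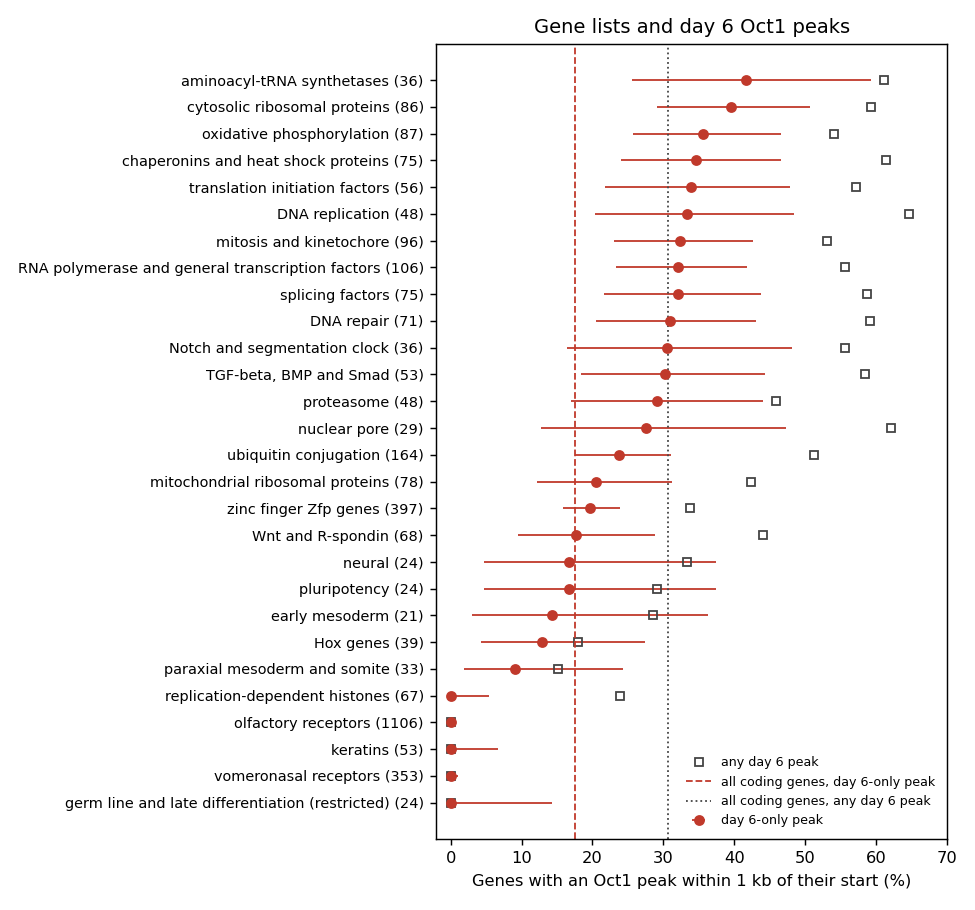
Share of the genes of each list (number of genes in brackets) with a day 6-only Oct1 peak within 1 kb of their start (red, with 95% counting intervals) and with any day 6 peak (open squares); dashed and dotted lines mark all protein-coding genes, 17.6% and 30.7%. Aminoacyl-tRNA synthetases (41.7%) and cytosolic ribosomal proteins (39.5%) stand highest, and replication-dependent histones, olfactory and vomeronasal receptors, keratins and restricted genes are at 0.

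Named members of these lists show the range of scores. Among ribosomal protein genes Rpsa had a score of 1965, Rpl23 1715, Rps2 1453 and Rpl27 1334. Of the respiratory chain, Cox4i1 of cytochrome oxidase had 1537 and the succinate dehydrogenase genes Sdhb and Sdha 1261 and 982. In DNA replication, Pold1, for the catalytic subunit of polymerase delta, had 1372, Pola2 1287 and the helicase subunit Mcm2 1211. Among DNA repair genes, Xrcc1 (2035) and the ligases Lig3 (1712) and Lig4 (1580) led. The interval of the proteasome list, 17.0 to 44.1, included the background, with 14 of 48 genes (29.2%), among them Psma2, Psmg1 (2214) and Psmc4 (1738). Nuclear pore genes had 8 of 29 (27.6%), with Nup133, Nup107 (2104) and Nup214 (1740). Basal transcription genes with a member included Gtf2h5 (1989) of TFIIH and Taf4 (1761) of TFIID. Zinc finger genes of the Zfp series were near the background with 78 of 397 (19.6%), as were mitochondrial ribosomal proteins with 16 of 78 (20.5%, 12.2 to 31.2).

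Replication-dependent histone genes, among the classic Oct1 targets, had no member at their start (0 of 67), and 16 had another day 6 peak. A day 3 Oct1 peak lay at the start of 56 of them (83.6%) and an ESC Oct1 peak at 30 (44.8%). As the rule removes day 6 peaks that overlap these, nothing is read from the 0. Of 4 described Oct1 targets that are not histones, all 4 had a day 6 peak and Taf12 (score 755) had a member; 3 had an ESC Oct1 peak at the start, and the rule removes peaks that overlap these. No member lay at the start of any of 1106 olfactory receptor, 353 vomeronasal receptor or 53 keratin genes. Any day 6 peak was at the start of 1, 0 and 0 of them, so the absence was not particular to members.

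Of 21 early mesoderm genes, 3 had a member at their start (14.3%), with low scores, namely the receptor gene Kdr of the endothelial and blood lineages (196), the transcription factor gene Twist1 (173) and Cited2 (71). Of 33 genes of the paraxial mesoderm and somites, 3 had one (9.09%), namely Six4 (555), Dmrt2 (271) and Pax3 (122), each encoding a transcription factor of the somite. The intervals, 3.05 to 36.3 and 1.92 to 24.3, both included the 17.6% of all protein-coding genes, and any day 6 peak was at the start of 6 and 5 genes. A further 6 paraxial genes (18.2%, 6.98 to 35.5) had a member in the gene or within 10 kb of it but none at the start, as did 1686 of all 21887 protein-coding genes (7.7%), a share inside that interval. For Tbx6, needed for paraxial fate, that peak lay at the start of the neighbour Ppp4c (score 729). For Foxc2 the peak of score 1178 lay at the start of Mthfsd, and for Ripply2 the peak of score 737 lay at that of Cyb5r4. Hox genes had 5 of 39 (12.8%), led by Hoxa4 (362) and Hoxb4 (260), and the pluripotency and neural lists 4 of 24 each (16.7%), among them Klf4 (737), Sall4 (545) and Zic1 (1061).

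Genes of the TGF-beta, BMP and Smad pathway had a member at their start in 16 of 53 cases, 30.2% (18.3 to 44.3), an interval above the 17.6% of all protein-coding genes. With the better-scoring 50% of day 6 peaks the share was 13.2% (5.48 to 25.3), an interval that included the 8.06% of all protein-coding genes at that setting. Any day 6 peak was at the start of 31 of them (58.5%), so members made up 51.6% (33.1 to 69.8) of these, near the 57.1% of all protein-coding genes. Among receptors, Bmpr2, the type II BMP receptor, had a score of 749 (chr1:59763011-59763720), the type I receptor Bmpr1a 632 (chr14:34502271-34503150), Acvr2a 312 and Acvr1 295, and the co-receptor Tgfbr3 had 244. Among signal transducers, the common mediator Smad4 had 1204 (chr18:73703261-73704170), the BMP-regulated Smad5 525 (chr13:56702781-56703380) and the TGF-beta-regulated Smad3 203. The inhibitory Smad6 had 1269, the highest score of the list (chr9:64021811-64023320), with its midpoint 506 bp before the start. Of the other negative regulators, the corepressor Ski had 512, the pseudoreceptor Bambi 384, and the secreted antagonists Fst and Chrd 197 and 171. The BMP target genes Id4 and Id2, for inhibitors of helix-loop-helix factors, had 1010 and 196, and Inhbb, for an activin subunit, 52. The scores spanned the list, with Smad6, Smad4 and Id4 above 1000 and 6 of 16 genes below 250.

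The Notch and segmentation clock list had 11 of 36 genes, 30.6% (16.3 to 48.1), an interval that included the 17.6% of all protein-coding genes. Any day 6 peak was at the start of 20 (55.6%), so members made up 55% (31.5 to 76.9) of these, near the 57.1% of all protein-coding genes. Among genes that process or modify the receptor, and the receptors themselves, Adam10 had a score of 1812 (chr9:70678601-70679270), Adam17 348, the gamma-secretase gene Ncstn 152, the glycosyltransferase genes Pofut1 and Rfng 803 and 725, and Notch2 463. Among clock and target genes, Axin2 had 836 (chr11:108920071-108921660), Hey2 832 (chr10:30842391-30843320), Spry2 491 and Dusp4 474. Hes1 had members 1232 bp from its start (score 301) and at the start of the neighbour Gm32998 (331) but none at its own start.

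The Wnt and R-spondin list was at the background, with 12 of 68 genes, 17.6% (9.5 to 28.8), and 30 (44.1%) with any day 6 peak. Of the receptors, Fzd2 had a score of 1084, Fzd7 552, the co-receptor Lrp6 432, Fzd4 346, Fzd3 304 and Fzd8 55. Of the cytoplasmic genes, Dvl2 had 1464, Axin2 836 and the kinase gene Csnk1e 256, and of the nuclear ones Tcf7 1119 and Tcf7l1 551. Wnt11, with 105, was the ligand gene of the list with a member. A member of score 2168 lay inside Csnk1a1, 1099 bp from its nearer end, just beyond the limit. At Fzd8 an ESC Oct1 peak also lay within 1 kb of the start.

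**Figure D4:**
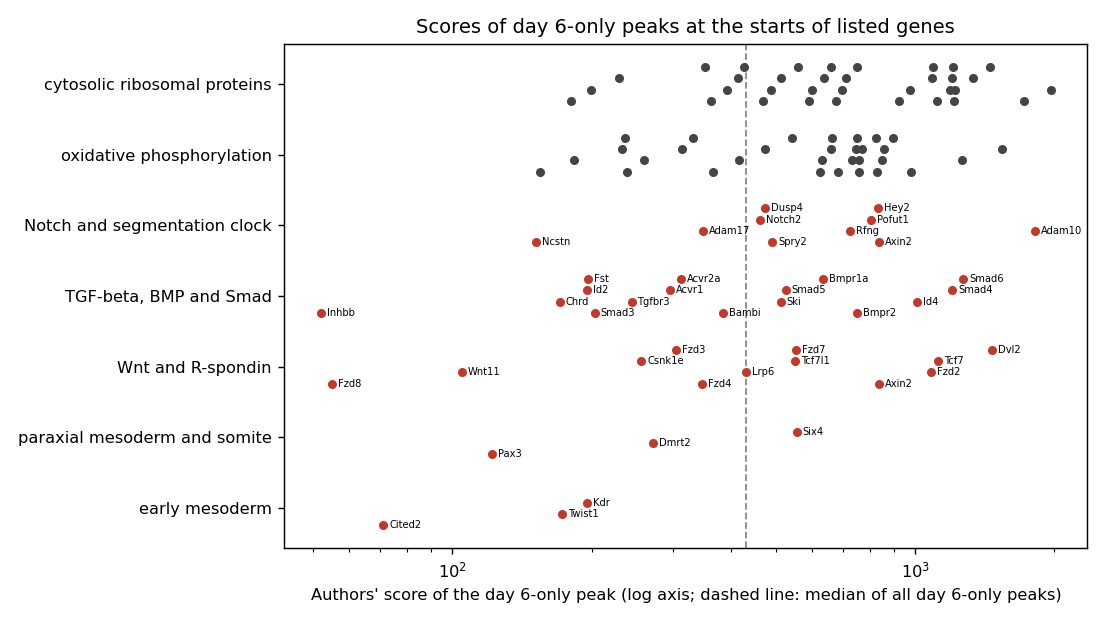
Authors' score (x axis, log scale) of the day 6-only peak at each gene's start, for 5 mesoderm and signalling lists (red, named) and 2 lists of general cell functions (grey); the dashed line is the median of all members, 432. The 3 early mesoderm genes lie at 196 and below, TGF-beta, BMP and Smad genes run from 52 to 1269, and ribosomal protein genes reach 1965.

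Promoters of genes with a member were GC-rich. A gene can have several windows, which may overlap. The median GC content of 4147 promoter windows (3582 genes) was 64.7%, against 52.7% over all 32851 windows of the promoter table. It was 67.0% for peaks shared with day 3 and 59.3% for peaks of ESCs, day 3 and day 6. The observed over expected CpG ratio was 0.847 for members, 0.384 for all windows and 0.276 for the 25416 without a day 6 peak. Windows of 60% GC or more made up 74.6% of the members' windows and 29.5% of all. The members' windows thus resembled those of peaks shared with day 3 more than those of all genes.

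The octamer ATGCAAAT, on either strand, was in 20 of the 4147 windows, 0.482% (0.295 to 0.744). Over all windows its share was 1.74% (1.60 to 1.88), for peaks shared with day 3 1.33% (0.923 to 1.85), and for peaks of ESCs, day 3 and day 6 50 of 472, 10.6% (7.97 to 13.7). The members' share was thus lower than that of all promoters, and the interval of the kept sites lay far above it. Base composition moved with this result, so windows were compared at like GC content. From 60 to 70% GC the octamer was in 8 of 1972 members' windows (0.406%) and in 14 of 3132 windows without a day 6 peak (0.447%), and in 1.55% and 11.4% of windows of the day 3 class and the kept class. From 70% GC on it was in 0 of 1123 members' windows and 0.0927% of those without a day 6 peak, from 50 to 60% in 0.983% and 1.17%, and below 50% in 2.21% and 2.74%. At like GC content the members' share was thus near that of promoters without a peak. Where the window lay wholly inside the peak, 6 of 2539 members' windows held it (0.236%) and 43 of 368 kept ones (11.7%). With 1 mismatch allowed the shares were 7.26% (6.49 to 8.09) for members and 18.6% for all windows. The day 3 class had 8.10% (7.07 to 9.22), an interval that overlapped the members', and the kept class 27.1%. The ATGC core, short enough to be in most windows, was in 62.4% of members' windows, 60.7% of the day 3 class and 75.4% of all. The shares with 1 mismatch and of the core were not compared at like GC content. The palindromic MORE arrangement of the octamer was in 3 of all 32851 windows and in 0 of the members', too few to compare.

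**Figure D5:**
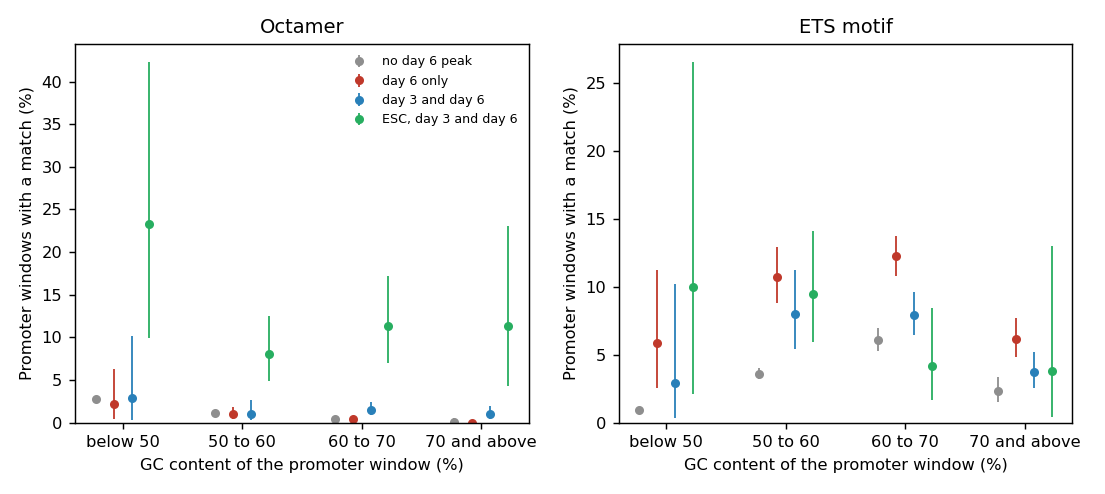
Share of promoter windows with the octamer (left) and the ETS motif CCGGAAGT (right) on the y axis, by GC content of the window (x axis), for windows without a day 6 peak and for 3 classes of day 6 peak; bars are 95% counting intervals. Between 60 and 70% GC the octamer is in 0.406% of day 6-only windows and 11.4% of windows kept from ESCs, while the ETS motif is in 12.2% of day 6-only windows and 6.07% of those without a day 6 peak.

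The ETS motif CCGGAAGT was in 416 of the 4147 members' windows (10.03%, interval 9.13 to 10.99), in 3.89% of all 32851 windows (1277), and in 6.34% of windows of peaks shared with day 3. From 60 to 70% GC its share was 12.2% (10.8 to 13.7) for members, 7.93% for the day 3 class and 6.07% for windows without a day 6 peak, so it was higher in members at like GC content too. All motifs were sought on both strands. The Sp motif GGGCGG was in 76.5% of members' windows, 35.7% of all and 83.7% of the day 3 class. In members' windows and in those without a day 6 peak it was in 20.6% and 4.87% below 50% GC, 57.9% and 26.4% from 50 to 60%, 79.5% and 67.5% from 60 to 70%, and 93.4% and 89.5% from 70% on, so it was higher in members in all 4 bins. The NRF1 motif, which contains ATGC, was in 2.75% of members' windows against 0.971% of all, and the YY1 motif in 1.83% against 0.633%. The CRE motif TGACGTCA was in 3.79% against 1.79%. In the day 3 class the shares of NRF1, YY1 and CRE were 3.72%, 1.53% and 3.40%. For peaks of ESCs, day 3 and day 6 they were 2.97%, 1.91% and 5.30%, so shares above all windows were not particular to members. These 3 motifs were not compared at like GC content. The NFY motif CCAAT was in 35.9% of members' windows and 37.4% of all, and at like GC content the order differed by bin. Its share was 39.1% (36.9 to 41.3) for members and 31.2% (29.6 to 32.9) without a day 6 peak from 60 to 70% GC, 44.2% against 36.7% from 50 to 60%, and 24.0% against 17.3% from 70% on. Below 50% GC it was lower in members, at 31.6% against 41.1%. In the day 3 class it was 41.4% from 60 to 70% GC, close to the members. The Smad box CAGAC was in 44.1% of members' windows and 49.6% of all, and the BMP-Smad motif GGCGCC in 28.4% against 11.9% and in 27.6% of the day 3 class. From 60 to 70% GC GGCGCC was in 26.3% of members' windows and 24.2% of those without a day 6 peak, and from 70% GC on in 45.6% and 47.7%. From 50 to 60% GC it was in 15.4% (13.1 to 17.9) of members' windows against 5.96% (5.47 to 6.48), and below 50% in 5.15% against 1.01%. GGCGCC was thus more frequent in members below 60% GC, and in the 2 bins above it the shares lay close together. In the day 3 class it was in 60 of 376 windows from 50 to 60% GC. In the better-scoring 50% of day 6 peaks the ETS motif was in 11.9% of members' windows and in the rest in 8.41%, and NRF1 in 4.40% and 1.39%, while the octamer was in 0.537% and 0.433%. A match is a description of the letters, and binding of these factors was not measured.

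Beyond 1 kb of any start lay 490 members, 357 inside a gene and 133 outside, with 32 more than 10 kb from any gene. The highest of them lay inside Sptbn4, 5662 bp from the start of Shkbp1 (chr7:27361371-27361970), with a score of 2837. The highest of those far from any gene was nearest to Hlf, for a circadian transcription factor (chr11:90417841-90418420, score 1196, 27213 bp from its start). The other 4 of the top 5 had their nearest gene start at Prrc2b (961), Bcorl1 (572), Mir6935 (515) and Mir23a (512). The peak assigned to Mir6935 lay 42105 bp from that start, while the nearest gene body was 12948 bp away.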

How the data were processed

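Oct1 and Oct4 ChIP-seq was sequenced as paired reads. The submitters' processing notes name Novoalign 3.8.2 and mm10; the peak caller, its threshold and its control are not given in the sources used here. The deposited files were 1 peak list per library, in which the authors gave each peak a whole-number score of no stated unit, used only within a list. They held no read counts, so depth is unknown.

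Overlap (at least 1 bp) was computed in Python 3.11.15 with pandas 2.3.3, numpy 2.4.6 and scipy 1.17.1. A count with bedtools 2.31.1 found the same 4073 members. Starts, gene types and promoter windows (250 bases before, 50 after) came from RefSeq, GRCm38.p6. A start was the gene start inside its promoter window, 250 bases from the window's upstream edge. Where no strand was known, as for 4395 of the 21887 protein-coding genes, either end of the gene counted as a start. Promoters of chromosome 18 were not used here. Peak midpoints within 1 kb counted as at the start. Overlapping genes share peaks. Functions were tested on simulated data.

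The members and gene lists were chosen with earlier results of these data known. Named genes were the 15 top-scoring members at a start, the 5 top-scoring beyond 10 kb of any gene, all genes of the mesoderm and signalling lists with a member, the 4 highest of each other list, genes with most members, and the 3 peaks on either side of the overlap rule; some lists are shown by fewer, and 1 gene of the Notch list is counted but not reported here. Sequences shown were also required to lie wholly inside the peak. Alternatives were another overlap, score, window, gene and motif setting. Figures were drawn with matplotlib 3.10.9.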

Additional observations from a re-analysis of the deposited data

How the results depend on the processing

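No paired analysis was possible because each group had 1 library and the labels give no replicate numbers. The share of members at a gene start, 88.0%, was 86.5% when peaks had to cover 50% of each other to count as shared, 93.1% for the better-scoring 50% of day 6 peaks, 85.2% against the better-scoring 50% of the other lists, 84.2% within 500 bp, 94.3% within 5 kb, 84.9% for protein-coding starts and 73.3% with genes of known strand only. The better-scoring 50% held 1700 members with a median percentile of 68.5, at the starts of 1763 protein-coding genes (8.06%, against 17.6%), with a promoter GC of 65.3%. In windows wholly inside the peak, GC was 67.0% and the octamer share 0.236%; with 1 mismatch it was 7.26%. The settings of known strand and of windows inside the peak were chosen after seeing the data. Of 94 alternative values, 62 moved by less than their counting interval or within 1.5 times. Members of the better-scoring 50% are a part of all members, so list shares could only fall or stay, and the background fell to 8.06%. With them 23 of 29 lists fell, 18 by more than their counting interval, and nothing is read from these counts. At 5 kb shares could only rise or stay, the background was 19.6%, and no list moved by more than its interval. By their share, 18 of the 19 lists above the background stayed above it with the better-scoring 50% and 19 of 19 at 5 kb. Of the 11 lists with an interval above the background, TGF-beta, BMP and Smad lost that with the better-scoring 50% (13.2%, 5.48 to 25.3, against 8.06%), and the other 10 had lower bounds from 9.02 to 18.8. Among early mesoderm and Hox genes no member was in the better-scoring 50%. The intervals of these shares, 0 to 16.1 and 0 to 9.03, both included the 8.06% of all protein-coding genes. Peak lists cannot show binding below the authors' threshold, and a site listed only at day 6 may have been bound and unlisted earlier.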

Other observations

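Of noncoding genes, 542 of 12727 long noncoding RNA genes (4.26%) had a member at their start and 999 (7.85%) any day 6 peak. For miRNA genes the numbers were 39 and 64 of 1228 (3.18% and 5.21%), and for tRNA genes 16 and 32 of 408 (3.92% and 7.84%), against 17.6% and 30.7% of protein-coding genes. Small nuclear RNA genes, which include long-known Oct1 targets, had 2 of 1004, while 26 had any day 6 peak. These genes lie close to others and exist in copies, so some may share a neighbour's peak.

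Several genes held more than 1 member. Gse1 had 3, the best with a score of 486, and 63 genes had 2, among them Abhd4 (best score 2012), Phf23 (1617), the nucleolar methyltransferase gene Fbl (1451), Lin54 (1254), of a complex that regulates cell-cycle genes, and Hes6 (1248), of the Hes family.

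Chromosome X held 2.46% of members (2.00 to 2.98) and 4.41% of protein-coding genes, and chromosome Y held 0 members. The share on chromosome X was low in the whole day 6 list (2.11%), in peaks shared with day 3 (1.88%) and in peaks of ESCs, day 3 and day 6 (0.752%), so it was not particular to members. Chromosome 11 held 8.40% of members (7.56 to 9.29), below the 10.5% of all day 6 peaks and the 10.98% of peaks shared with day 3, and 7.35% of protein-coding genes.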
